A study of Mus musculus with 6 samples.

Results

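The genes described here encode the proteins of the cytosolic ribosome in the murine lung cancer cell line 889. They were picked from the gene names alone, as Rpl or Rps with a number and optional letters, in some with a further digit (Rpl22l1), together with Rplp0, Rplp1, Rplp2 and Rpsa. The count tables held 85 such names among 34745 genes, and 78 of them, 48 of the large subunit and 30 of the small subunit, had more than 500 counts summed over the 6 libraries. The remaining 7 were not tested. The study compared cells that received Cas9 with a control sgRNA (sg-con, 3 libraries) and cells that received Cas9 with an sgRNA against kiaa1522 (sg-kiaa1522, 3 libraries). The strain is C57BL/6 per the labels, and no drug is named for either group. Nothing in the sources used here says that the replicates came from separate cultures, so p-values measure only the spread between these libraries, which may be technical. The sources used here also do not say which sgRNA the sequenced cells carried, or whether they were a pool or a clone. The comparison asks how the transcriptome differs between cells with the kiaa1522 sgRNA and cells with the control sgRNA.

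The transcript of the targeted gene was higher, not lower, in the libraries labelled sg-kiaa1522. C77080, the mouse gene for kiaa1522, was at 127, 129.7 and 124 CPM in sg-con and 210.4, 203 and 216 CPM in sg-kiaa1522. Its level thus went from 127 ± 2.93 to 209.9 ± 6.38 CPM (log2 fold change 0.73, SE 0.0569, adjusted p = 9.10e-05, edgeR quasi-likelihood test with Benjamini-Hochberg adjustment, n = 3 per group). Protein was not measured in these files. The groups are therefore the libraries labelled sg-con and the libraries labelled sg-kiaa1522 throughout.

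A ribosome is built from ribosomal RNA and one set of small, basic proteins that are made in the cytoplasm, imported into the nucleolus and fitted onto the RNA with the help of assembly factors. The small subunit decodes the mRNA, and the large subunit joins the amino acids and holds the exit tunnel and the stalk that recruits translation factors. In mammals most of these genes have a single active copy with introns, beside many intronless copies elsewhere in the genome. Their transcripts usually begin with a C followed by a run of pyrimidines, the terminal oligopyrimidine (TOP) tract, through which their translation is tied to mTOR signalling.

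Total counts per library were 12220001 to 18609376, and the 10046 genes tested held 99.5% to 99.6% of them. The limit of 3 counts corresponded to 0.161 to 0.245 CPM, the counts of a gene scaled to the library's size, depending on the library. The epithelial keratins Krt8, Krt18 and Krt19 were abundant in each library, whereas Epcam was listed at 0 in each. Summed over 5 epithelial markers the level was 3797 to 4599 CPM in sg-con and 3195 to 3474 CPM in sg-kiaa1522. Cdh1, one of them, fell from a mean of 56.5 to 20.4 CPM (log2 fold change −1.45, edgeR adjusted p = 5.12e-05). Over 5 markers of lung epithelial identity the sum was 44.3 to 96.5 CPM and 24.6 to 60.8 CPM. Among them, Nkx2-1 varied widely within groups, with 970, 1096 and 227 counts in sg-con and 132, 174 and 671 in sg-kiaa1522 (log2 fold change −1.09, edgeR adjusted p = 0.208). Over 6 fibroblast markers, carried by Col1a2, it was 423.4 to 444.1 CPM and 144.0 to 162.4 CPM. Over 5 leukocyte markers, carried by Cd68, it was 1.29 to 2.40 CPM and 10.1 to 12.7 CPM, with Adgre1 and Cd3e at 0. In bulk RNA fewer cells of a type and less RNA per cell cannot be told apart, and the part of these markers in the results below was not tested.

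The annotated start sites are shown first, since the TOP tract is the sequence feature these genes are best known to share. A RefSeq promoter window (GRCm38.p6, 250 bases before to 50 bases after the start) was found for 60 of the 78 genes. Of these windows, 27 had at least 5 bases in a row that are each C or T, beginning no more than 5 bases before or after the annotated start. The same held for 26.4% of the 32851 windows of the 27025 genes in the table, tested here or not. A gene there can have several windows, whereas each member entered with the window nearest to its transcript start. Below, 15 bases before and 15 bases after the start are given for members that rose or fell, with the pyrimidine run in capitals where there was one.
Rpl12, chr2:32961697-32961726, plus strand: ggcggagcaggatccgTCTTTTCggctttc
Rps6, chr4:86857353-86857382, minus strand: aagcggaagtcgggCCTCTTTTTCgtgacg
Rps10, chr17:27635230-27635259, minus strand: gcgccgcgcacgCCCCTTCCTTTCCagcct
Rps7, chr12:28635939-28635968, minus strand: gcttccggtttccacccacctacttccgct
Rpl15, chr14:18270972-18271001, minus strand: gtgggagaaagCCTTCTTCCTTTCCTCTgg
Rps2, chr17:24720048-24720077, plus strand: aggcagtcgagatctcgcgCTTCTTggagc
Rps27l, chr9:66946071-66946100, plus strand: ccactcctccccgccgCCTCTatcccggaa
Rpl34, chr3:130730384-130730413, minus strand: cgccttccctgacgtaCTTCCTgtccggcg
Rps24, chr14:24490738-24490767, plus strand: tccggcgccgtagccatcatggtgagtctc
The first 4 belong to genes that rose and the last 5 to genes that fell. Runs occurred on both sides: the longest shown, 17 bases, is that of Rpl15, which fell, and the window of Rps7, which rose, had none by this rule. The Rps24 window had none either and holds an ATG just after the start. In some genes, Rps10, Rpl12, Rps7 and Rps24 among them, the start of the window differs from that of the transcript used for lengths below. Whether a run is found can depend on the start taken. Among windows of members that rose, 8 of 19 had a run, among those that fell 4 of 6, and among those without a call 15 of 35.

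Most ribosomal protein genes did not pass the test. Of the 78, 23 rose in sg-kiaa1522 (29.5%), 6 fell (7.69%) and 49 did not pass an adjusted p of 0.05. Over all genes tested, 26.3% were called higher and 26.3% lower, so the share that rose was close to the background and the share that fell was below it. No member reached a log2 fold change of 1 in size, against 2.74% of all genes called higher and 4.34% called lower at that size. That count of 0 was the same with DESeq2, and in edgeR 34 members had an unadjusted p under 0.05. The log2 fold changes ran from −0.64 (Rpl15) to 0.87 (Rpl12), with a median of 0.14, against −0.0067 over all genes tested. They were positive in 59 members and negative in 19. The groups did not overlap in 36 members with sg-kiaa1522 higher and in 7 with it lower, against 30.6% and 31.1% of all genes. By subunit, 13 of 48 large subunit genes rose and 3 fell (median 0.15), and 10 of 30 small subunit genes rose and 3 fell (median 0.14). Without the library sg-con 1 these medians were 0.064 and 0.099.

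**Figure D1:**
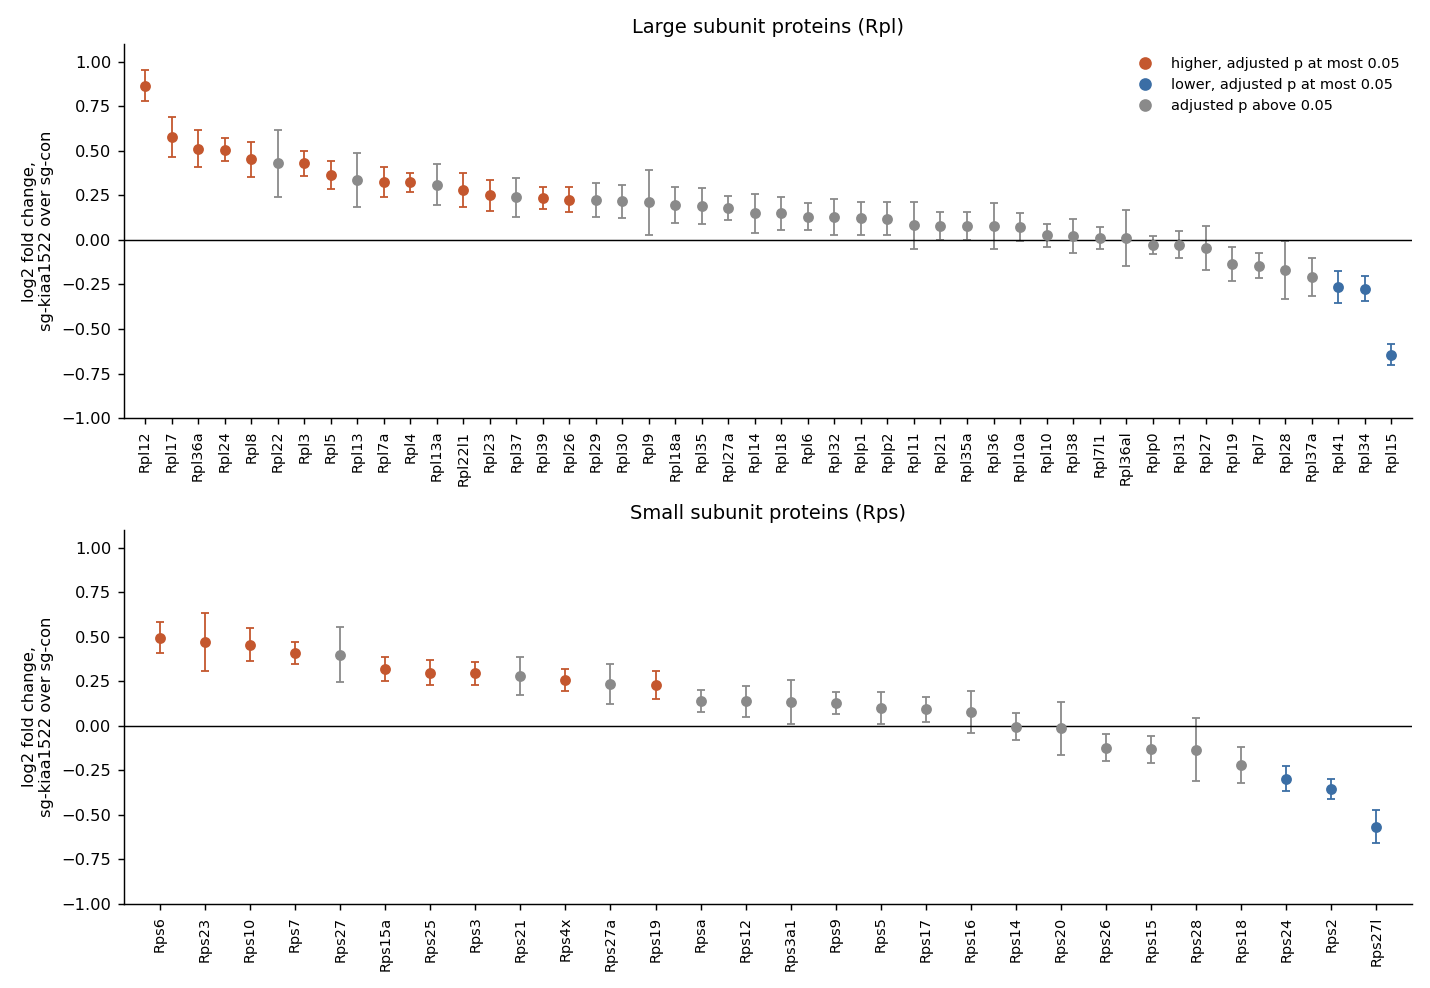
Log2 fold change of 76 of the 78 ribosomal protein genes, sg-kiaa1522 over sg-con, with its standard error (edgeR, n = 3 per group), for the large subunit (top) and the small subunit (bottom); red points rose, blue points fell and grey points did not pass an adjusted p of 0.05. Rpl12 is highest at 0.87 and Rpl15 lowest at −0.64, and most points lie slightly above 0.

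Ribosomal protein transcripts are short, and transcript length moved with the groups in these libraries. The median transcript of the members had 740 bases, against 2812 bases over all genes tested. Among the 988 other tested genes under 1110 bases, 100 rose (10.1%) and 421 fell (42.6%), with a median log2 fold change of −0.26. Among the 8936 other genes of that length or more, 28.0% rose and 24.7% fell, with a median of 0.018. The median of the members, 0.14, thus had the opposite sign to that of other short genes. The part of length in their values was not tested.

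The level of the set differed more among the sg-con libraries than among the sg-kiaa1522 libraries. The 78 genes took 3.77%, 4.32% and 4.45% of all gene counts in sg-con 1, 2 and 3, and 4.64%, 4.46% and 4.42% in sg-kiaa1522 1, 2 and 3. The sg-con 1 library stood apart, with its share lower than in each of the other 5. It held the lowest CPM of all 6 libraries for 57 of the 78 members, and the median member lay 0.22 below its 6-library mean there on the log2 scale. Group means of the share were 4.18% ± 0.36 and 4.50% ± 0.12 (SD, n = 3), and sg-con 3 lay above sg-kiaa1522 3, so the groups overlapped. With 3 libraries a side, an exact two-sided permutation test cannot go below 0.10, and none was run.

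Without sg-con 1, 20 members rose and 12 fell, and the median log2 fold change was 0.075; all genes tested were then called higher in 29.6% and lower in 29.5%. Of the 23 rises, 19 held and 4 did not: Rps23, Rpl22l1, Rpl23 and Rps19. Rpl22 passed in addition, at 0.21 (adjusted p = 0.0314). The 6 further falls were Rps28 at −0.34 (adjusted p = 0.00704), Rps18 at −0.33 (adjusted p = 0.00605), Rpl19 at −0.24 (adjusted p = 0.0102), Rps15 at −0.21 (adjusted p = 0.0130), Rps26 at −0.20 (adjusted p = 0.0171) and Rpl7 at −0.19 (adjusted p = 0.0446). The median shift was thus smaller without this library, while the calls of Rpl12, Rpl17, Rpl36a, Rpl24, Rps6, Rpl15, Rps27l and Rps2 held. Over the 14 alternatives that refit the data, 15 of the 23 rises and 4 of the 6 falls held in each.

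**Figure D2:**
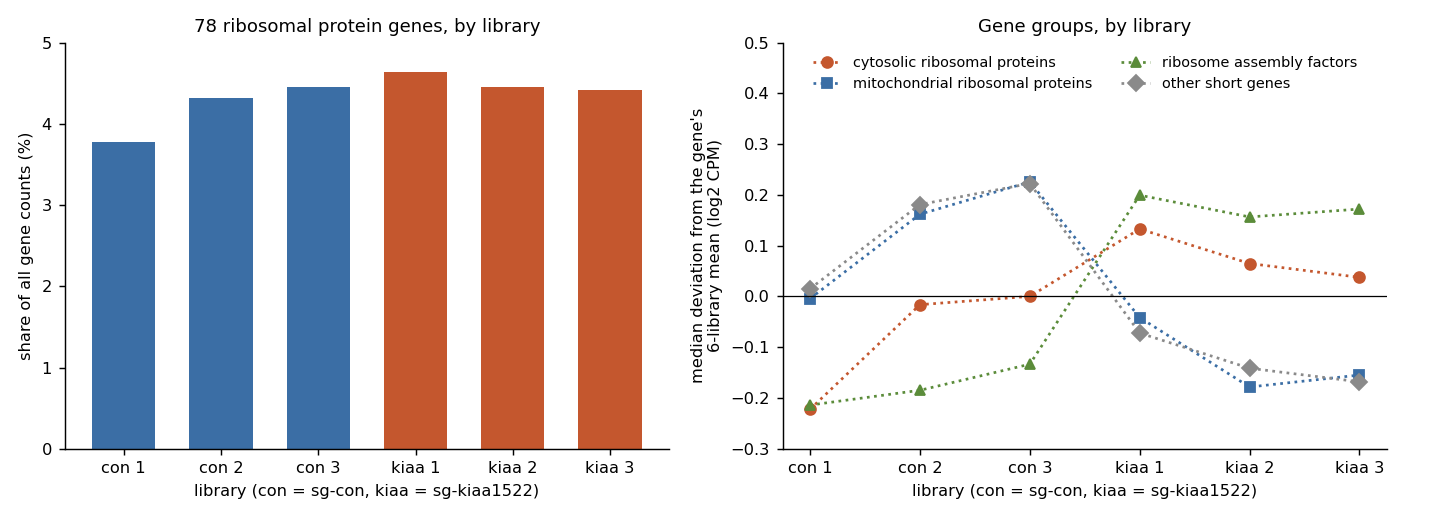
Left, share of all gene counts (%) taken by the 78 ribosomal protein genes in each library, blue for sg-con and red for sg-kiaa1522. Right, median deviation of each gene group from the 6-library mean of its genes in log2 CPM; members are lowest in sg-con 1 at −0.22, and mitochondrial ribosomal protein genes and other short genes move together from library to library.

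Among large subunit genes the highest rise by a gene’s own row was that of Rpl12, whose protein lies at the base of the stalk. The gene (ENSMUSG00000038900, GRCm38 chr2:32961559-32965345, plus strand, 7 exons) was at 44.8, 54.2 and 53.8 CPM in sg-con and 93.1, 90.9 and 94.5 CPM in sg-kiaa1522. The lowest sg-kiaa1522 library was well above the highest sg-con library. The mean went from 50.9 ± 5.33 to 92.8 ± 1.84 CPM (log2 fold change 0.87, SE 0.0893, adjusted p = 0.000245). Summed with a row of identical coding sequence, Gm10275, it gave 0.36 (adjusted p = 0.00431), below the next 2 genes. Rpl17, a protein beside the exit tunnel, was at 13.8, 14.8 and 16.4 CPM in sg-con and 24.7, 21.2 and 21.3 CPM in sg-kiaa1522, again without overlap (log2 fold change 0.58, SE 0.112, adjusted p = 0.00400). Rpl36a, a protein of the exit site for tRNA, was at 18.9, 18.4 and 21.7 CPM in sg-con and 30.1, 25.9 and 28.3 CPM in sg-kiaa1522 (log2 fold change 0.51, SE 0.106, adjusted p = 0.00511). None of the 3 has a coding stretch of 50 bases that is unique to it.

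Members of much higher abundance rose as well. Rpl8, which lies close to the peptidyl transferase centre, was at 1527, 1892 and 1921 CPM in sg-con and 2574, 2455 and 2279 CPM in sg-kiaa1522 (log2 fold change 0.45, SE 0.0969, adjusted p = 0.00611). Its lowest value was that of sg-con 1, and without that library the change was 0.35 (adjusted p = 0.00295). Rpl24, a protein on the face turned to the small subunit, was at 384, 428 and 422 CPM in sg-con and 574, 605 and 575 CPM in sg-kiaa1522 (log2 fold change 0.51, SE 0.0632, adjusted p = 0.000558). Rpl24 too has no coding stretch of 50 bases that is unique to it. Rpl3, the other large protein near the peptidyl transferase centre, was at 125, 134 and 147 CPM in sg-con and 185, 180.2 and 182 CPM in sg-kiaa1522 (log2 fold change 0.43, SE 0.0723, adjusted p = 0.00212). In each of these the 3 sg-kiaa1522 libraries lay above the 3 sg-con libraries. The other 7 large subunit genes that rose, among them Rpl5, Rpl4 and Rpl7a, had log2 fold changes between 0.23 and 0.36. Rpl7a lost its call without sg-con 3 and without sg-kiaa1522 2. Rpl5 stands out by role, since with Rpl11 and the smallest rRNA of the large subunit it forms a complex that can bind Mdm2. Rpl5 was at 137, 141 and 152 CPM in sg-con and 201, 175 and 177 CPM in sg-kiaa1522 (log2 fold change 0.36, SE 0.0780, adjusted p = 0.00607). Rpl11 gave 0.082 (adjusted p = 0.622) at the low level of 862 counts over all libraries. Its copy Gm10036 had 30854 counts, and Rpl11 summed with its copies gave 0.025 (adjusted p = 0.828).

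In the small subunit, Rps6, the substrate of the S6 kinases, had the highest rise. It was at 13.3, 12.9 and 13.3 CPM in sg-con and 18.8, 18.2 and 18.6 CPM in sg-kiaa1522, with very little spread within either group (log2 fold change 0.49, SE 0.0872, adjusted p = 0.00259). The Rps6 row had 1570 counts over all libraries, and no coding stretch of 50 bases is unique to the gene. Rps10, which lies near the mRNA entry site, was at 26.2, 31.0 and 31.3 CPM in sg-con and 39.6, 40.4 and 41.3 CPM in sg-kiaa1522 (log2 fold change 0.46, SE 0.0919, adjusted p = 0.00470). Rps7 was at 311, 333 and 343 CPM in sg-con and 429.7, 422 and 458 CPM in sg-kiaa1522 (log2 fold change 0.41, SE 0.0635, adjusted p = 0.00148). Both groups were apart in all 3 genes. Rps23, a protein of the decoding centre, was at 3.85, 5.02 and 4.14 CPM in sg-con and 5.44, 6.76 and 5.77 CPM in sg-kiaa1522, and its call rested on little depth (log2 fold change 0.47, SE 0.164, adjusted p = 0.0437). It had 517 counts over all libraries, the fewest of any tested member, and lost its call under DESeq2 and when any library but sg-con 2 was left out. Rps13, with 479 counts, lay just under the filter. Rps3, a protein of the mRNA entry channel, was at 1185, 1353 and 1339.7 CPM in sg-con and 1627, 1576 and 1553 CPM in sg-kiaa1522 (log2 fold change 0.29, SE 0.0657, adjusted p = 0.00734). The other 5 small subunit genes that rose, among them Rps15a, Rps25 and Rps4x, had log2 fold changes between 0.23 and 0.32.

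Rpl15, a large subunit protein buried in the ribosomal RNA, fell most by its own row. The gene (ENSMUSG00000012405, GRCm38 chr14:18267823-18271391, minus strand, 4 exons) was at 95.0, 98.0 and 97.3 CPM in sg-con and 61.1, 62.0 and 62.8 CPM in sg-kiaa1522, with the narrowest spread of the falls. The mean went from 96.8 ± 1.56 to 62.0 ± 0.871 CPM (log2 fold change −0.64, SE 0.0591, adjusted p = 0.000155). Summed with its copy Gm10020 it gave −0.37 (adjusted p = 0.00333), a smaller fall than that of Rps27l. Rps27l, the paralog of Rps27 and a known target of the tumour suppressor Trp53, was at 66.8, 76.6 and 82.0 CPM in sg-con and 52.8, 50.1 and 49.2 CPM in sg-kiaa1522 (log2 fold change −0.57, SE 0.0927, adjusted p = 0.00183). The highest sg-kiaa1522 library stayed below the lowest sg-con library in both. Rps2, at the mRNA entry channel, was at 1778, 1805 and 1946 CPM in sg-con and 1429, 1408 and 1482 CPM in sg-kiaa1522 (log2 fold change −0.36, SE 0.0570, adjusted p = 0.00168). Rps24, whose human counterpart is mutated in some cases of Diamond-Blackfan anaemia, was at 1221, 1276 and 1427 CPM in sg-con and 1095, 1068 and 1031 CPM in sg-kiaa1522 (log2 fold change −0.30, SE 0.0703, adjusted p = 0.00955). These are abundant members, and their groups did not overlap either.

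Rpl34 and Rpl41 fell by less. Rpl34 was at 83.7, 90.5 and 91.6 CPM in sg-con and 77.3, 73.4 and 69.4 CPM in sg-kiaa1522 (log2 fold change −0.27, SE 0.0722, adjusted p = 0.0152). Rpl41, one of the shortest proteins known, was at 678, 836 and 804 CPM in sg-con and 674, 651 and 602 CPM in sg-kiaa1522 (log2 fold change −0.27, SE 0.0894, adjusted p = 0.0382). Its sg-con 1 value lay almost level with sg-kiaa1522 1. Rpl41 lost its call when any library but sg-con 1 was left out, and Rpl34 when sg-con 2, sg-kiaa1522 2 or sg-kiaa1522 3 was.

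**Figure D3:**
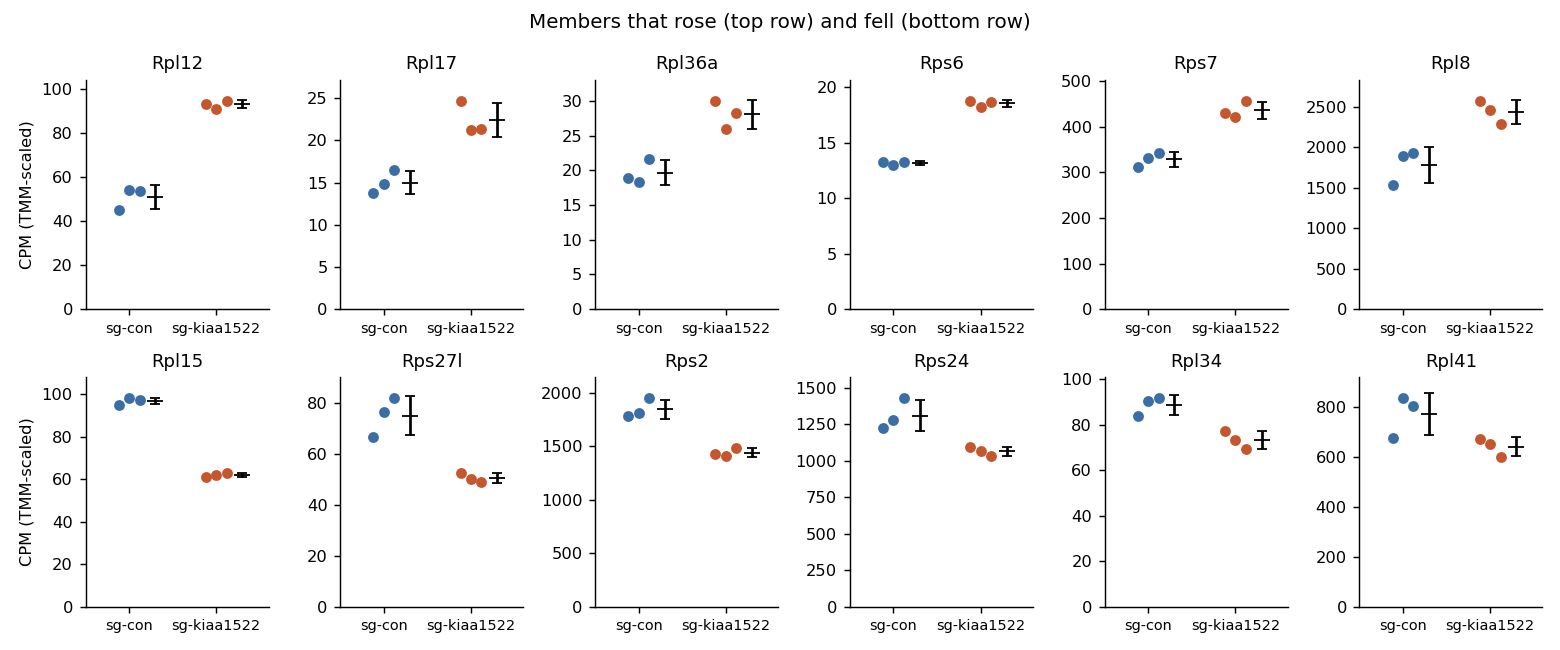
TMM-scaled CPM of 6 members that rose (top) and the 6 that fell (bottom), one point per library and the mean ± SD beside it (n = 3), with each axis starting at 0. The groups do not overlap in any of the 12 genes, and sg-con 1 is the lowest sg-con library in each but Rpl36a and Rps6.

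No protein of the stalk itself passed the test. Rplp0, which anchors it, was at 1710.2, 1816 and 1802 CPM in sg-con and 1772, 1755 and 1703 CPM in sg-kiaa1522 (log2 fold change −0.027, SE 0.0514, adjusted p = 0.687). The acidic proteins Rplp1 and Rplp2 that complete it gave 0.12 (adjusted p = 0.299) and 0.12 (adjusted p = 0.314), or 0.016 (adjusted p = 0.787) and 0.026 (adjusted p = 0.757) without sg-con 1. Rpsa, the most abundant member by counts and also known as the laminin receptor, was at 2776, 3150.5 and 3141 CPM in sg-con and 3329.8, 3369.8 and 3286 CPM in sg-kiaa1522 (log2 fold change 0.14, SE 0.0629, adjusted p = 0.0988); its groups did not overlap, but the difference missed the threshold, and without sg-con 1 it was 0.075 (adjusted p = 0.134). Fau and Gnb2l1, core proteins listed under other names, likewise gave no call. Fau, a ubiquitin-like fusion that carries a small subunit protein, gave −0.051 (adjusted p = 0.622). Gnb2l1, the scaffold Rack1 on the small subunit, gave 0.15 (adjusted p = 0.123).

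Some ribosomal proteins have a paralog that can take the same place in the ribosome. Coding sequences were compared from the annotated transcripts, and the first 90 coding bases of 2 pairs of equal coding length whose genes were both tested are shown, with the bases of the second gene that differ in capitals. Both paralogs of these pairs were expressed, with the change in only 1 of them passing the threshold.
Rps27: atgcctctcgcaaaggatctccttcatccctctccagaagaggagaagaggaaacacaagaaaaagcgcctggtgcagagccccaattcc
Rps27l: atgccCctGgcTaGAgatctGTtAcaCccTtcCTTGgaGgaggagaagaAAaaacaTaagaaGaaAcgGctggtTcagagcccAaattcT
Rpl36a: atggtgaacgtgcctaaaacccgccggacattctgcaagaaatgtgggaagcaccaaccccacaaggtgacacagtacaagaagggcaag
Rpl36al: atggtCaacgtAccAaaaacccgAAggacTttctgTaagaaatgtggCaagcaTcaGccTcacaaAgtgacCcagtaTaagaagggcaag
The genes lie at chr3:90212522-90213651, chr9:66946086-66949516, chrX:134585654-134588062 and chr12:69182731-69184083. Rps27 and Rps27l shared 76.2% of 252 coding bases, and differed at 24 of the 90 shown. Rps27 was at 6.31, 5.29 and 6.00 CPM in sg-con and 8.40, 8.35 and 6.48 CPM in sg-kiaa1522 (log2 fold change 0.40, SE 0.154, adjusted p = 0.0616), so Rps27l fell while the value of Rps27 was positive without passing. Rps27 summed with the row of its identical copy Rps27rt gave 0.10 (adjusted p = 0.265). Rpl36a and Rpl36al shared 87.7% of 318 bases and differed at 14 of those shown. Rpl36al, its relative on chromosome 12, was at 62.6, 93.2 and 94.8 CPM in sg-con and 91.6, 79.5 and 81.3 CPM in sg-kiaa1522, or 0.0094 (adjusted p = 0.966), beside the rise of Rpl36a. The difference between the changes of 2 paralogs was not tested.

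Rpl22 and Rpl22l1 (70.2% identity over 366 aligned coding bases) both had positive values. Rpl22 was at 174, 312 and 272 CPM in sg-con and 339, 343 and 341 CPM in sg-kiaa1522 (log2 fold change 0.43, SE 0.187, adjusted p = 0.0888). Its sg-con libraries were far apart and its sg-kiaa1522 libraries almost equal, and it had the largest spread of any member. Rpl22l1 was at 29.5, 33.4 and 33.7 CPM in sg-con and 42.1, 39.0 and 36.4 CPM in sg-kiaa1522 (log2 fold change 0.28, SE 0.0933, adjusted p = 0.0368), a call that did not hold when sg-con 1, 2 or 3 or sg-kiaa1522 1 or 2 was left out. Rpl7 gave −0.15 (adjusted p = 0.115) and its relative Rpl7l1 gave 0.011 (adjusted p = 0.894). The remaining pairs had a partner that was barely detected: Rpl3l and Rpl10l had 1 count each over all libraries, Rps4l had 7, and Rpl39l had 0. Rpl3l is known from muscle and Rpl10l and Rpl39l from testis. The main forms gave 0.43 (adjusted p = 0.00212) for Rpl3, 0.026 (adjusted p = 0.765) for Rpl10, 0.26 (adjusted p = 0.0100) for Rps4x and 0.24 (adjusted p = 0.0150) for Rpl39. Rpl39 lost its call with the replicate number as a block in the fit and without sg-kiaa1522 3.

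Members differ in how much of their sequence is their own. Only uniquely placed fragments were counted by the authors, and 26 of the 78 members had no coding stretch of 50 bases that is absent from every other annotated transcript. Rpl12 is one of them. Its 495 coding bases occur without a difference in Gm10275, a gene of 2 exons on chromosome 10, and the first 90 bases of both read as follows.
Rpl12 and Gm10275: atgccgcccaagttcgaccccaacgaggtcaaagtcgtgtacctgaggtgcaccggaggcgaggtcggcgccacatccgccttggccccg
The files gave 7082 counts to Rpl12 and 174429 to Gm10275. Gm10275 rose by a smaller amount than Rpl12, 0.34 (adjusted p = 0.00540), and the sum of both rows gave 0.36 (adjusted p = 0.00431). The direction and the call were thus kept, but the size was less than for the Rpl12 row alone.

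In all, 28 of the 78 members and Rpl23a, which lies under the filter, had 43 such copy rows. Of the 27 copy rows that were tested 7 rose and 3 fell, beside the 26.3% called in each direction over all genes, while 7 rose and 6 fell without sg-con 1. The copy rows held 1401846 counts against 1034840 for their parents, and for 13 parents the copies together had more counts than the gene itself. Gm15500, whose sequence holds all 891 coding bases of Rpl5, had 269008 counts beside 16181 for Rpl5 and rose as well, at 0.36 (adjusted p = 0.00192). Gm6472 and Gm9493, copies of Rps7, gave 0.32 (adjusted p = 0.0108) and 0.36 (adjusted p = 0.00241), near the value of Rps7. The copy of Rpl15, Gm10020, fell as its parent did, at −0.24 (adjusted p = 0.0370), and their sum gave −0.37 (adjusted p = 0.00333). Rps27rt, identical to Rps27 over its coding bases, had 48452 counts against 673 for Rps27 and gave 0.095 (adjusted p = 0.286). Rpl23a, with 313 counts, has a copy, Rpl23a-ps3, with 90965.

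With each parent and its copies summed, 23 members rose and 6 fell, of which 21 and 6 were also called from the parent rows. Rpl9 was among those that then passed, at 0.32 (adjusted p = 0.00343), while Rps23 and Rpl22l1 did not. Among the 19 members with at least 25% of coding stretches to themselves, 4 rose, Rpl8, Rpl4 and Rps3 among them, and 2 fell (Rpl34 and Rps27l). Among the other 59, 19 rose and 4 fell, beside 26.3% of all genes each way. Without sg-con 1, 5 rose and 4 fell of the 19, and 15 rose and 8 fell of the 59. Which part of a shared transcript the counted fragments came from was not tested.

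Levels per length spanned a wide range for proteins that, apart from the stalk, are used in equal numbers. In CPM per kb of transcript, the highest were Rpl32 at 3415, Rps15 at 2716 and Rpl8 at 2477, and the lowest were Rps23 at 5.51, Rps3a1 at 9.86 and Rpl11 at 10.4. The median was 458.2 CPM per kb. Members with at least 25% of unique coding stretches had a median of 1296 and a lowest value of 126.1, against a median of 241.7 for the others. None of the 3 lowest had more than 11.7% of coding stretches to itself. A low level of such a member in these files cannot be told apart from reads that were placed nowhere or in a copy. After Rpl22, the spread between replicates was largest for Rps28, at 137, 225 and 216 CPM in sg-con and 184, 182 and 161 CPM in sg-kiaa1522, and Rpl9, at 9.70, 6.96 and 9.12 CPM in sg-con and 11.5, 8.13 and 10.3 CPM in sg-kiaa1522.

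**Figure D4:**
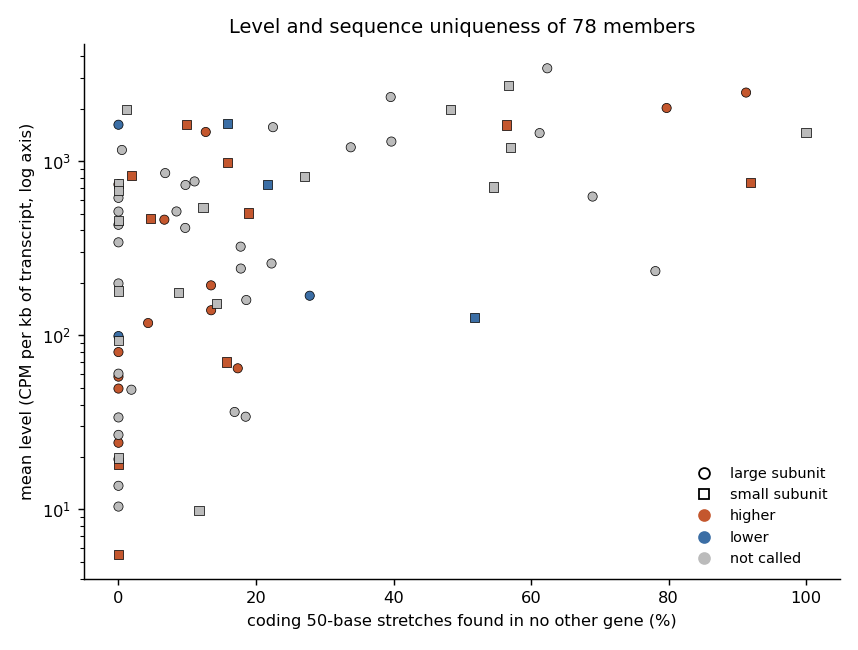
Mean level of each of the 78 members in CPM per kb of transcript (log axis) against the share of its coding 50-base stretches found in no other annotated gene (%); circles are large subunit and squares small subunit genes, red for higher, blue for lower and grey for no call. All members below 100 CPM per kb have less than 20% of unique stretches.

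Members lay on 19 chromosomes. The 2 tested members there, Rpl15 at chr14:18267823-18271391 and Rps24 at chr14:24487125-24496959, both fell. The other 341 tested genes of chromosome 14 had a median log2 fold change of −0.38, lower than for the other genes on any other chromosome with members. By contrast, the 4 members on chromosome 2, Rpl12 included, had a median of 0.30, and the other 796 tested genes there had a median of 0.14. On chromosome 7, which holds 13 members, 4 rose and none fell, beside 26.3% of all genes called each way, at a median of 0.15 against −0.024 for the other 716 genes. The remaining falls were spread over chromosomes 3, 9, 10 and 17. The part of chromosomal position in these values was not tested.

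The promoters of the members with the largest rise and the largest fall by their own rows are given from 200 bases before to 20 bases after the start. Capitals mark matches on either strand to CCGGAA, the core that ETS factors bind, to AAGATGGC, part of the YY1 motif, to CACGTG, the E-box, to GGGCGG, the GC box, and to TATAAA.
Rpl12, chr2:32961512-32961731, plus strand: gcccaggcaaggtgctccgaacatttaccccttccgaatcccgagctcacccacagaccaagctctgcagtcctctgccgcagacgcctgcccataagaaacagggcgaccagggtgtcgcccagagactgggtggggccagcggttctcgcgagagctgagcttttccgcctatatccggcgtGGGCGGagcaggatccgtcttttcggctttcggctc
Rpl15, chr14:18270967-18271186, minus strand: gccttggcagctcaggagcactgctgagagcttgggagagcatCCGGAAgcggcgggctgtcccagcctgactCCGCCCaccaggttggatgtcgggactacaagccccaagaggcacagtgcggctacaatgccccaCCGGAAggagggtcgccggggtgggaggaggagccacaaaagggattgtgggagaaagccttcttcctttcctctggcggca
Rpl12 had 1 GC box, and Rpl15 had 1 GC box and 2 matches to CCGGAA. Over the whole 300-base windows, CCGGAA was present in 51.7% of the 60 members against 14.9% of all windows, GGGCGG in 61.7% against 35.7%, AAGATGGC in 8.33% against 2.75%, CACGTG in 8.33% against 7.15% and TATAAA in 6 windows against 13.6% of all. CCGGAA was in 7 of 19 windows of members that rose, 4 of 6 of those that fell and 20 of 35 of those without a call. A match is a description of letters and not of binding.

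The rest of the translation machinery is set beside the members, from lists of known genes. Of 18 elongation factors and other transcripts with a TOP tract, 11 rose (61.1%) and 1 fell (5.56%), with a median log2 fold change of 0.33, beside 26.3% called in each direction over all genes tested. The elongation factor Eef1a1 was at 12517, 12012 and 11923 CPM in sg-con and 15246, 16189.5 and 15706 CPM in sg-kiaa1522 (log2 fold change 0.37, SE 0.0491, adjusted p = 0.000720). Eif3e and Npm1, the nucleolar chaperone nucleophosmin, had the largest rises of that list, at 0.64 (adjusted p = 0.000247) and 0.56 (adjusted p = 0.00106). Eif3e, Eif3f, Eif3h and Eif4b are in the next list too, and Npm1 is also among the assembly factors below. Tpt1 fell, at −0.17 (adjusted p = 0.0415), and lost that call when any library but sg-con 1 was left out. Of 38 initiation factors, 18 rose (47.4%) and 2 fell (5.26%), with a median of 0.20, while 19 rose and 7 fell without sg-con 1. Eif3a, the scaffold of the initiation complex that binds the small subunit, was at 764, 674 and 622 CPM in sg-con and 1289.7, 1419 and 1410.5 CPM in sg-kiaa1522 (log2 fold change 1.00, SE 0.0856, adjusted p = 0.000122), and Eif4a2, an RNA helicase, gave 0.75 (adjusted p = 0.000305). The 2 falls were Eif1ax at −0.27 (adjusted p = 0.00489) and Eif5b at −0.25 (adjusted p = 0.0285), which lost its call without sg-con 2 or 3 or sg-kiaa1522 2 or 3.

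Most ribosome assembly factors, which fit the proteins onto the ribosomal RNA, rose. Of 84, 53 rose (63.1%) and 6 fell (7.14%), with a median of 0.37, beside the same 26.3% each way over all genes. Without sg-con 1, 51 rose and 11 fell, beside 29.6% and 29.5% over all genes. Mdn1, the large ATPase that releases assembly factors from the large subunit precursor, was at 39.1, 27.7 and 28.3 CPM in sg-con and 83.2, 86.1 and 91.5 CPM in sg-kiaa1522 (log2 fold change 1.46, SE 0.140, adjusted p = 0.000189). Rrp12, needed for export of both precursors, gave 1.37 (adjusted p = 0.000116). Wdr18 and Wdr12, both of large subunit assembly, fell at −0.43 (adjusted p = 0.00409) and −0.39 (adjusted p = 0.00414). The 84 genes had a median transcript length of 2794.5 bases, against 740 for the members.

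Mitochondrial ribosomal protein genes, which encode the separate ribosome of that organelle, had mostly negative values. Of 75, 5 rose (6.67%) and 32 fell (42.7%), with a median of −0.27 and a median transcript of 1280 bases. Mrpl24 was at 88.4, 95.7 and 105 CPM in sg-con and 37.7, 36.1 and 38.0 CPM in sg-kiaa1522 (log2 fold change −1.37, SE 0.0838, adjusted p = 3.86e-05), and Mrpl57 gave −1.01 (adjusted p = 0.000483). Mrpl43 and Mrpl38 rose, at 0.48 (adjusted p = 0.00310) and 0.45 (adjusted p = 0.00308). Their shares of rises and falls were near those of other short genes, 10.1% and 42.6%, a group that includes some of them. Whether these lists differ from the members was not tested. Of 10 tested ribosomal protein pseudogene rows, 2 rose, Rpl9-ps6 at 0.32 (adjusted p = 0.00356) and Rpl39-ps at 0.31 (adjusted p = 0.0121), and 1 fell, Rps2-ps10 at −0.43 (adjusted p = 0.0443), beside 26.3% of all genes each way. Without sg-con 1, 2 rose and 3 fell, and Rps2-ps10 lost its call when any other library was left out.

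**Figure D5:**
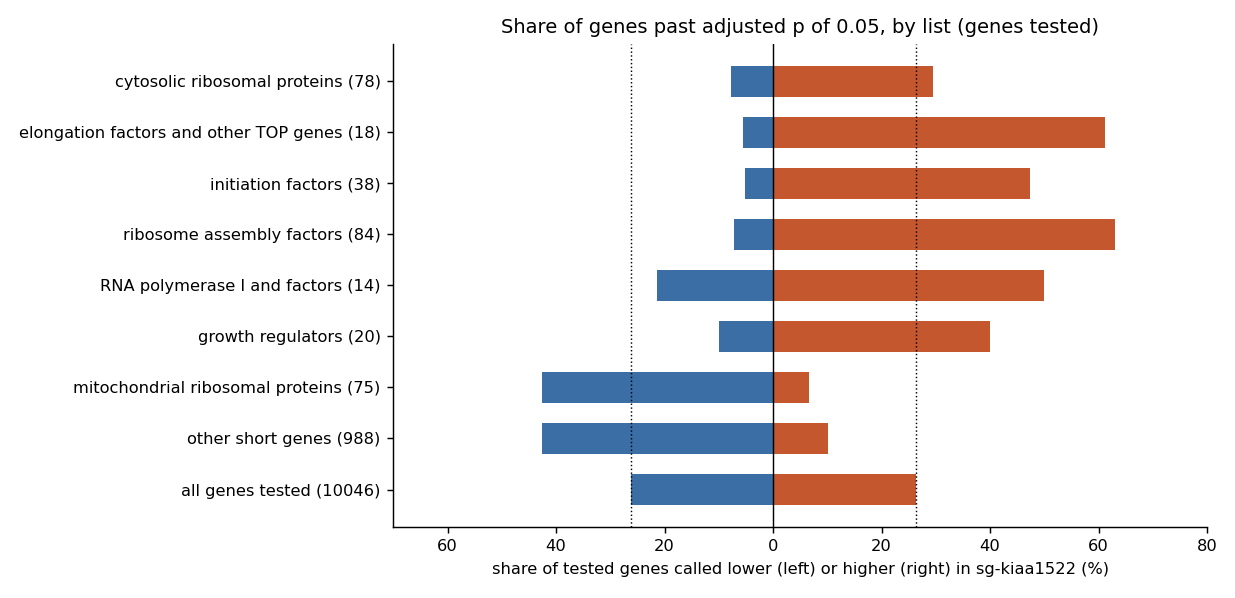
Share of the tested genes of each list called higher (right, red) or lower (left, blue) in sg-kiaa1522 at an adjusted p of 0.05, with the number of genes tested in parentheses and dotted lines at the shares over all 10046 genes. Members have 29.5% higher and 7.69% lower, assembly factors 63.1% higher, and mitochondrial ribosomal proteins 42.7% lower.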

How the data were processed

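RNA from 6 libraries of 889 cells was sequenced. Per the labels and the study's methods, the authors removed reads of ribosomal RNA, mapped the rest to GRCm38 with HISAT2 2.0.4 and counted uniquely placed fragments per gene with StringTie 1.3.0. The deposited values are raw counts per gene. The annotation release and the use of strand are not given in the sources used here, so overlapping genes cannot be told apart.

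Counts were tested with edgeR 4.0.16 (R 4.3.3, TMM scaling, quasi-likelihood test, genes with more than 500 counts summed over the libraries, the filter of the study), with Benjamini-Hochberg adjustment over 10046 genes. A gene rose or fell where the adjusted p was at most 0.05; the stricter call also needed a log2 fold change of 1 in size. CPM are TMM-scaled, errors are SDs, and depth limits cover counting error only. The procedure was tested on simulated data. Transcript and coding sequences and coordinates are from GENCODE M21 (GRCm38, shortest principal coding transcript), promoters from RefSeq (GRCm38.p6). Copies are genes of at most 2 exons that hold at least 25% of a member's coding stretches of 50 bases.

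The alternatives were RLE and library size scaling, TMM without the members, DESeq2 1.42.0, 2 other filters, a replicate block, each library left out, names with a digit after the letter left out, core genes listed under other names added, and copies summed. The last was chosen after seeing the data. Members and lists were chosen with earlier results of these data known. Named members were the 10 largest rises and the falls among called genes, stalk genes, paralog pairs, Fau and Gnb2l1, the 3 highest and 3 lowest levels, the 3 largest spreads and the 2 largest rises and falls of each list. Eef1a1, Rps3, Rpl5, members named for a lost or gained call and the copies were named after their values were seen. Some genes that enter the counts are not reported here by name.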

Additional observations from a re-analysis of the deposited data

How the results depend on the processing

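The numbers of members that rose ranged from 16 to 25 over the 14 alternatives that refit the data, and no member reached the stricter call in any of them. The 2 other name rules, which only change which genes are counted, gave 22 and 23 higher and 6 lower each. DESeq2 called 25 members higher and 6 lower, and library size scaling 20 and 6. Leaving out each library in turn gave 4 to 12 members lower (1 to 5 of the large and 3 to 7 of the small subunit), with the upper value without sg-con 1. It also gave 6 to 9 called genes for RNA polymerase I and its factors (6 without sg-kiaa1522 1 or 2), 2 to 5 for the pseudogene rows and 0 to 1 for core genes listed under other names, the upper values of the last 2 without sg-con 1. Same-numbered libraries did not deviate together (mean correlation −0.14, against 0.071 for other pairs), so no pairing was used in the main fit. So few pairs cannot settle whether the numbers pair the libraries. With the replicate block, 16 members rose and 4 fell, and 1 large subunit member fell in place of 3.

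Over the 14 alternatives that refit the data, 13 members changed sign in at least 1, none of them called with either sign. Among the named genes, Rpl7l1 gave −0.0032 and Rpl36al −0.0058 under library size scaling. With each library left out in turn, Rpl7l1 ranged from −0.018 to 0.049, Rpl36al from −0.17 to 0.10, Rpl10 from −0.032 to 0.053, Rpl11 from −0.0014 to 0.14 and Fau from −0.13 to 0.0083. With copies summed, Rps12 went from 0.14 to −0.019 and Rpl27 from −0.044 to 0.18. The causes were not tested. Of the values of named genes under alternatives, 836 kept direction and side of the threshold, 49 lost a call, 11 gained one and 11 changed sign. Depth limits Rps23, Rps27, Rpl11, Rpl9 and Rps3a1, which had under 1000 counts over all libraries, and the 7 genes under the filter.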

Other observations

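Genes that set the rate of ribosome production were looked at beside the proteins themselves. Of 20 tested growth regulators of ribosome synthesis, 8 rose and 2 fell (median log2 fold change 0.24, or 0.15 without sg-con 1), beside 26.3% called in each direction over all genes tested. Rps6, a ribosomal protein gene that rose, is in this list too, so it is counted both here and among the members. Myc, which drives transcription of ribosomal genes, was at 123, 118 and 118 CPM in sg-con and 209.8, 203 and 205 CPM in sg-kiaa1522 (log2 fold change 0.78, SE 0.0557, adjusted p = 6.70e-05). Mtor, the kinase upstream of TOP mRNA translation, was at 37.6, 41.6 and 35.5 CPM in sg-con and 71.6, 71.0 and 72.3 CPM in sg-kiaa1522 (log2 fold change 0.91, SE 0.0826, adjusted p = 0.000154), and Larp1, which binds the TOP tract, gave 0.42 (adjusted p = 0.000525). These 3 were chosen after their values were seen. The largest rises were Deptor, an inhibitor of that kinase, at 1.33 (adjusted p = 0.000404) and Larp4 at 1.00 (adjusted p = 0.000611). Mycl and Tsc2 fell, at −2.36 (adjusted p = 0.000170) and −0.43 (adjusted p = 0.000809). Of 14 genes of RNA polymerase I and its factors, 7 rose and 3 fell. Taf1d and Polr1b rose, at 0.67 (adjusted p = 0.000201) and 0.65 (adjusted p = 0.00159), while Cd3eap, also a subunit of that polymerase, and Taf1b fell, at −0.54 (adjusted p = 0.0171) and −0.53 (adjusted p = 0.00188), of which Cd3eap lost its call without sg-kiaa1522 1 or 2. Ribosomal RNA itself was not measured, since reads from it were removed before mapping.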
